A study of Mus musculus with 4 samples.

Results

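Dlk1 and 9 other imprinted growth genes (Meg3, Igf2, H19, Mest, Peg3, Cdkn1c, Grb10, Ndn and Igf2r) were followed in interscapular brown adipose tissue (iBAT) and epididymal white adipose tissue (eWAT). The members were taken by gene name, which gave 22 probes of 55672 usable on every array and 10 genes of 22064. The set was chosen by the iBAT signal of Dlk1, which was among the most raised genes in ASK1-deficient mice. The iBAT values by genotype are therefore a description, with no test.

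RNA was measured on 4 one-colour Agilent arrays, 1 each for WT iBAT, ASK1-deficient (ASK1KO) iBAT, WT eWAT and ASK1KO eWAT. Each array held RNA pooled from 3 male mice aged 10 weeks under normal conditions. ASK1 was missing from the whole body, and WT and ASK1-deficient mice were bred as separate colonies, so genotype and colony cannot be told apart. With 1 array per group the spread between mice is unknown. In whole tissue, fewer cells of a type and less RNA per cell cannot be told apart.

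An imprinted gene is transcribed from the copy of 1 parent, and the choice is kept by DNA methylation laid down in the germ line. Many imprinted genes act on fetal growth, and several lie in clusters that share a control region. Dlk1, also called Pref-1, is a transmembrane protein related to the Notch ligands that marks preadipocytes and restrains their maturation into fat cells. IGF2 is a fetal growth factor, and IGF2R removes it from the cell surface.

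The sequences of several member probes are shown first, since each probe reads 1 short stretch of its RNA. The Mest probe among them was well above background in eWAT and in neither iBAT array, so it gives no part of the iBAT ratio or the tissue difference of Mest. Positions are on mm9 as the array files list them, and exons were not assigned. Dlk1 lies on chromosome 12, with probes from 110698502 to 110698561 and from 110698721 to 110698781, both on the plus strand. Of the second Dlk1 probe the first 30 bases are given. The Meg3 probes shown start at 110799558 and 110809678 on the same strand, 101 and 111 kb downstream of the first Dlk1 probe. The H19 probes shown lie on the minus strand of chromosome 7, from 149761492 to 149761551 and from 149761756 to 149761815, and the Mest probe on the plus strand of chromosome 6 from 30692160 to 30692219.
Dlk1 probe A_55_P2105371: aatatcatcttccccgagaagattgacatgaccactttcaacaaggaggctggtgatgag
Dlk1 probe A_66_P117477: tacacatattgtcttgtgttgctggtgcca
Meg3 probe A_52_P196568: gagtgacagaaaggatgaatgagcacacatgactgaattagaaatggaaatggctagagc
Meg3 probe A_51_P455997: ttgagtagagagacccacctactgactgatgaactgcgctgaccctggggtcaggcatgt
H19 probe A_55_P1961127: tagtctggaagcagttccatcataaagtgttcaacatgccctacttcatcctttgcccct
H19 probe A_30_P01025068: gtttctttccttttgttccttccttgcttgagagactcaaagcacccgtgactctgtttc
Mest probe A_55_P2151868: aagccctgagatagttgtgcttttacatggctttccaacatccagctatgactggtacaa

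The 250 bases upstream of the annotated start are shown for Dlk1 and Meg3, which neighbour each other, and for Mest, which of the members was lowest in iBAT relative to eWAT. They are RefSeq sequences on GRCm38.p6, chr12:109452573-109452822 for Dlk1, chr12:109540746-109540995 for Meg3 and chr6:30733256-30733505 for the first of 3 Mest starts, all on the plus strand. Capitals mark CG dinucleotides, the bases that DNA methylation acts on.
Dlk1: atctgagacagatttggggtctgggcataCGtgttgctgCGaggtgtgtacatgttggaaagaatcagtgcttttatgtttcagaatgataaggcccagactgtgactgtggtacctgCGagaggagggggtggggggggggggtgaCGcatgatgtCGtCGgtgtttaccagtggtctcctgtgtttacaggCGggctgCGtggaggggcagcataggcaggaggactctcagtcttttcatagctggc
Meg3: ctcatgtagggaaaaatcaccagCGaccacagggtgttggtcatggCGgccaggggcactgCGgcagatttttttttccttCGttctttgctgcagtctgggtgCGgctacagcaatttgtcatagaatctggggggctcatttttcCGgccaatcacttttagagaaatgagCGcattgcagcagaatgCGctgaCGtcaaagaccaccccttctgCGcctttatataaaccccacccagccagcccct
Mest: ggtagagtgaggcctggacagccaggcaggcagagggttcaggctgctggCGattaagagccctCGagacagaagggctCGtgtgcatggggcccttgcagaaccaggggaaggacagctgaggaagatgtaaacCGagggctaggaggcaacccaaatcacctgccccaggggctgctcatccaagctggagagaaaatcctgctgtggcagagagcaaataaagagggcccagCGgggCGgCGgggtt

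RefSeq gave 15 promoter windows of 300 bases for 8 members, all but H19 and Cdkn1c. The Dlk1 window held 9 CG dinucleotides and the first Meg3 window 13, beside a median of 7 over 32851 promoters. Motifs were searched on both strands. The cAMP response element TGACGTCA stood in 2 of the 15 windows, those of Meg3 and Peg3, and in 1.79% of all promoters. Its core TGACG, which the full element contains, stood in 7 windows, Dlk1 among them, and in 20.8% of all promoters. TATAAA stood in 1 member window against 13.6% of all promoters, CCAAT in 3 against 37.4%, and the GC box GGGCGG in 8 against 35.7%. Windows of 1 gene can overlap, and a match describes letters only.

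The arrays read 28983 to 33386 probes well above background, and no spot was saturated. Map3k5, the gene of ASK1, has 2 probes. The signal of the first was 448.0 in WT iBAT and 117 in ASK1KO iBAT, and 701 in WT eWAT and 194 in ASK1KO eWAT. The log2 ratio of the second was -0.06 for iBAT, with -0.51 for eWAT. The tissue labels were checked with brown adipocyte markers, of which all 9 measured on every array were higher in iBAT in the limma fit. Their summed scaled signal, in units of the 75th percentile of each array, was 3839 in WT iBAT, 3205 in ASK1KO iBAT, 49.2 in WT eWAT and 16.7 in ASK1KO eWAT.

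Signals below are the scanner's background-corrected intensities, and log2 ratios are taken after each array was scaled to its 75th percentile. The technical spread, the median SD of a log2 ratio over repeated spots of 1 probe, was 0.09 in iBAT and 0.06 in eWAT. It covers the array and not the mice, and it can be wider for a dim probe: the last Mest probe had an SD of 0.21 in iBAT.

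Dlk1 was higher in ASK1-deficient iBAT at both of its probes. The signal of the first was 41.5 in WT iBAT, 297 in ASK1KO iBAT, 22.7 in WT eWAT and 33.6 in ASK1KO eWAT. The second gave 411, 1932, 153 and 272 in the same order. On both probes ASK1KO iBAT was the brightest array and WT eWAT the dimmest. As a gene, Dlk1 had a log2 ratio of 2.47 in iBAT, 5.56-fold, and ranked number 2 from the top of 14375 genes. Of the 10 members it was the 1 gene at least 2-fold higher there, and 0.835% of all genes were, which was the basis of the choice and carries no weight as a count. In eWAT, which the choice did not use, the log2 ratio of Dlk1 was 0.79, 1.73-fold, with 0.66 and 0.92 at the probes. That placed it at rank 91 of 15375 genes, below the 2-fold limit that 0.286% of all genes passed. The first probe was dim in eWAT, where probes counted as well above background from 18.9 upward on the WT and from 20.7 on the ASK1KO array, and it has 1 spot and so no spread of its own. With normexp background correction the gene stood at 1.79 for iBAT, with 0.50 for eWAT. Markers of adipocyte progenitors, the cells known for Dlk1, had a median log2 ratio of 0.10 in iBAT, with 7 of 12 above 0, and of -0.09 in eWAT, with 3 of 12 above 0. Their part in the Dlk1 values was not tested.

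**Figure D1:**
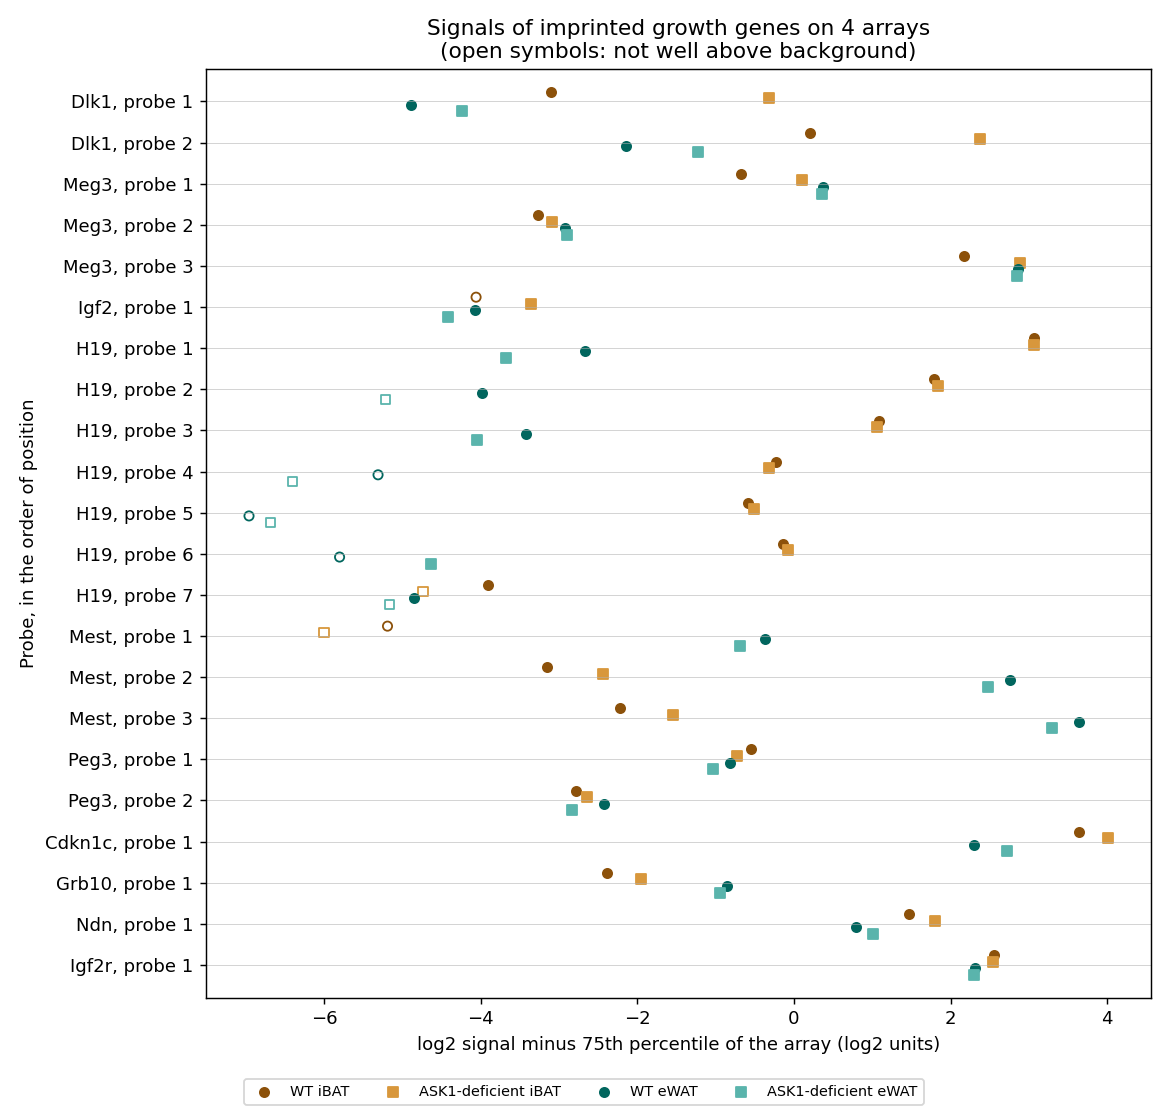
Log2 signal of each of the 22 member probes on the 4 arrays, minus the 75th percentile of the array, with brown symbols for iBAT, green symbols for eWAT, circles for WT, squares for ASK1-deficient and open symbols where a probe was not well above background. Each symbol is 1 array, and the ASK1KO iBAT symbol lies to the right of the other 3 at both Dlk1 probes.

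Meg3, a long noncoding RNA transcribed from the maternal copy of the Dlk1 cluster, was also brighter in ASK1-deficient iBAT, by less than Dlk1. Its brightest probe, the last of the 3, gave 1604 in WT iBAT, 2742 in ASK1KO iBAT, 4907 in WT eWAT and 4575 in ASK1KO eWAT. The first probe gave 222, 399, 874 and 810. The eWAT arrays were thus the brighter ones in unscaled signal, and both were close to each other. The log2 ratios in iBAT were 0.78, 0.18 and 0.71 at the probes and 0.56 for the gene, and the dim second probe gave the lowest. In eWAT the gene's log2 ratio was -0.004, within the technical spread.

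Other genes of the same region did not reach 2-fold. Within 1 Mb of Dlk1, 12 other RefSeq genes were measured in iBAT, with a median log2 ratio of 0.07 and a range of -0.46 to 0.79. In eWAT 14 were measured, with a median of -0.02 and a range of -0.87 to 0.08. Mirg, a noncoding RNA that hosts microRNAs in this cluster, stood at a log2 ratio of 0.79 in iBAT against 0.07 in eWAT. Begain, on the other side of Dlk1, had 0.67 and -0.03, and 6430411K18Rik, between Meg3 and Mirg, had 0.55 and 0.08. Apart from these and Meg3, the RefSeq genes measured in iBAT lay further from Dlk1 than Begain. Their log2 ratios there ran from -0.46 to 0.44. Rtl1 was not well above background on any array.

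**Figure D2:**
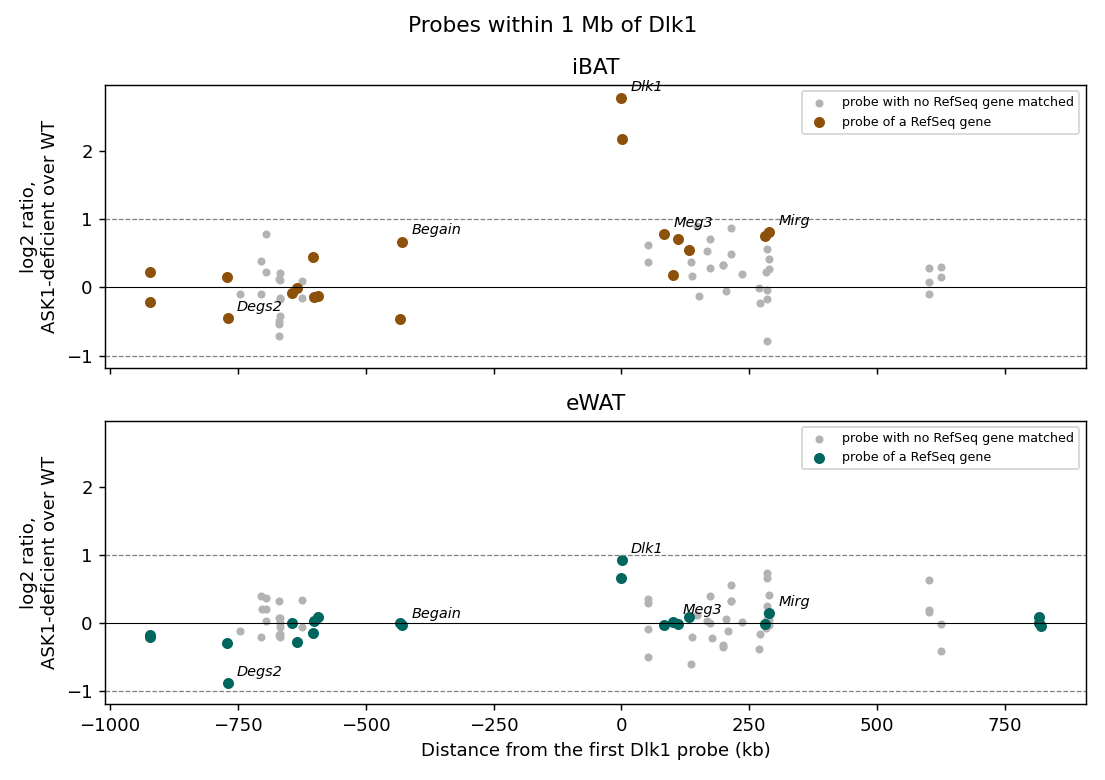
Log2 ratio of ASK1-deficient over WT against distance from the first Dlk1 probe in kb, in iBAT above and eWAT below, with coloured points for probes of RefSeq genes, grey points for probes with no RefSeq gene matched and dashed lines at 2-fold. The 2 Dlk1 probes are the only points beyond 2-fold in iBAT, and no point is in eWAT.

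Igf2 was dim. Its probe gave 21.3 in WT iBAT, where it was not well above background, 36.3 in ASK1KO iBAT, 40.1 in WT eWAT and 29.7 in ASK1KO eWAT. In iBAT only a bound could be given, at least 1.63-fold higher in the ASK1-deficient array. In eWAT the log2 ratio was -0.34, and it ranged from -0.43 to -0.06 over 10 settings of the processing. H19, the noncoding RNA next to Igf2 that is made from the opposite parental copy, has 7 probes. Its first gave 2967 in WT iBAT, 3096 in ASK1KO iBAT, 106 in WT eWAT and 49.6 in ASK1KO eWAT. Both iBAT arrays were high and close together, and both eWAT arrays were low. In iBAT the gene's log2 ratio was 0.01 over 6 probes, all between -0.09 and 0.08. The last probe was at least 1.44-fold higher in WT iBAT, at 23.8 against 13.9, which was not well above background.

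In eWAT H19 had a log2 ratio of -0.82 over its 2 measured probes, -1.01 at the first and -0.63 at the other, and -0.41 with normexp background correction. Of the remaining probes, 1 was at least 1.92-fold higher in WT and another at least 1.06-fold, while 1 was at least 1.44-fold higher in the ASK1-deficient array, all close to background. H19 is abundant in skeletal muscle, and muscle markers moved beside it in eWAT. Their median log2 ratio was -0.69 over 9 measured genes, 8 of them below 0, and their summed scaled signal was 9.80 in WT and 5.12 in ASK1KO eWAT. Of the 14 markers, Mylpf, Myod1, Myf5 and Myog were not well above background in WT eWAT, and Ckm besides these in ASK1KO eWAT. The part of muscle RNA in the H19 values was not tested.

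Mest, a paternally expressed hydrolase-like protein that rises with fat cell enlargement, moved in opposite directions in the 2 tissues. Its last probe, printed at 10 spots, gave 76.3 ± 10.3 in WT iBAT, 127 ± 12.8 in ASK1KO iBAT, 8407 ± 222 in WT eWAT and 6226 ± 136 in ASK1KO eWAT (SD over 10 spots of 1 array). The second probe gave 39.9, 68.4, 4554 and 3525. White fat was far brighter than brown fat on both. The first probe was not well above background in iBAT and gave 521 in WT eWAT and 394 in ASK1KO eWAT. The gene's log2 ratio was 0.69 in iBAT, 0.71 and 0.67 at the probes, and -0.31 in eWAT, where the 3 probes lay between -0.35 and -0.28. With normexp background correction the iBAT value shrank to 0.20.

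Of the genes that restrain growth, Cdkn1c, a cyclin-dependent kinase inhibitor, was a little higher in the ASK1-deficient array of both tissues. Its signal was 4433 in WT iBAT, 5964 in ASK1KO iBAT, 3327 in WT eWAT and 4162 in ASK1KO eWAT, with log2 ratios of 0.37 and 0.41. Grb10, an adaptor that dampens insulin and IGF1 receptor signalling, gave 67.7, 96.2, 371 and 329. That made a log2 ratio of 0.44 for iBAT, or 0.24 with normexp background correction, with -0.09 for eWAT. Ndn, the growth suppressor necdin, gave 988, 1296, 1170 and 1273, with log2 ratios of 0.33 and 0.21. Each of these has 1 probe at 1 spot, so none has a spread of its own.

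Peg3 and Igf2r, like H19, stayed near 0 in iBAT. Peg3, a paternally expressed zinc finger protein, gave 243, 225, 383 and 310 at its first probe and 51.6, 59.4, 125 and 89.0 at its second, in the same order of arrays. The probes differed in sign in iBAT, at -0.17 and 0.14, and both were below 0 in eWAT, at -0.21 and -0.41. Igf2r gave 2093 ± 77.7, 2163 ± 76.9, 3356 ± 87.3 and 3117 ± 120 (SD over 10 spots), with log2 ratios of -0.01 and -0.02, within the technical spread. The files list its probe at only 11 bases of chromosome 17, so its place was not used.

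**Figure D3:**
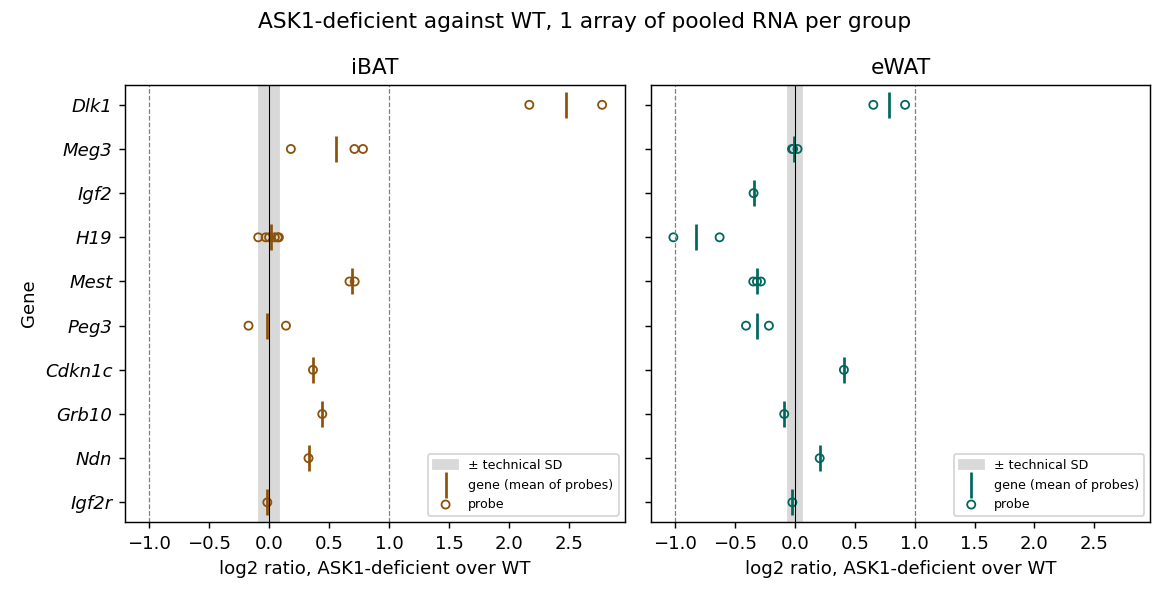
Log2 ratio of ASK1-deficient over WT for the 10 members in iBAT on the left and eWAT on the right, with circles for probes, bars for genes, grey bands for plus and minus the technical SD and dashed lines at 2-fold. Dlk1 stands alone beyond 2-fold in iBAT at 2.47, and H19 and Dlk1 mark the ends of the range in eWAT at -0.82 and 0.79.

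As a group, the members had a median log2 ratio of 0.37 in iBAT over 9 measured genes, 7 of them above 0, beside a median of -0.07 over all 14375 genes, of which 40.5% were above 0. These values include Dlk1, on which the set was chosen, and without it the median was 0.35 over 8 genes, 6 of them above 0. Macrophage markers lay above 0 in the same tissue, 9 of 9 with a median of 0.67, and their summed scaled signal was 9.54 in WT and 14.0 in ASK1KO iBAT. Of 10 hepatocyte markers, 3 were well above background in WT iBAT and 8 in ASK1KO iBAT. The signal of Alb was 7.50 in WT, not well above background, and 115 in ASK1KO iBAT, and that of Ttr 10.1, not well above background, and 44.8. The part of either list in the members' values was not tested. In eWAT the members' median was -0.05 over 10 genes, 3 of them above 0, beside 0.02 over all 15375 genes, of which 54.2% were above 0, and no member was at least 2-fold lower, where 0.865% of all genes were. Hepatocyte markers were lower in the ASK1-deficient array of that tissue, with log2 ratios of -4.26 for Alb, -5.58 for Ahsg and -4.03 for Serpinc1, and a list median of -4.03 over 5 genes, while Tat had -0.46 and Cyp2e1 -0.0040. All 10 were well above background in WT eWAT and 5 in ASK1KO eWAT. The median log2 ratios of the other marker lists in iBAT and eWAT were -0.28 and 0.08 for mature adipocytes, -0.39 and -0.83 for brown adipocytes, 0.13 and -0.10 for endothelium, 0.07 and -0.09 for Schwann cells and nerve, and -0.14 and 0.32 for adrenal cortex and testis, of which 4 of 9 genes were measured. Mesothelial markers were read mainly in eWAT, with a median of -0.25 over 7 genes, and of 10 epididymis markers 8 were not well above background in either eWAT array. The part of these cell types in the members' values was not tested.

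Members were also compared between the tissues. In a limma fit of genotype and tissue over the 4 arrays, 55.4% of 14056 genes passed an adjusted p of 0.05, so a count of members that passed is near the background. The fit has 1 residual degree of freedom and borrows its spread from all genes, and it takes the genotype effect as equal in both tissues. Apart from Dlk1, 5 of the 8 members tested passed, H19, Cdkn1c and Ndn higher in iBAT, as 30.8% of all genes were, and Mest and Grb10 lower, as 24.6% were. Over both tissues together the same fit called no member by genotype, and no gene at all (0%), while 5.48% of genes had an unadjusted p under 0.05. H19 was higher by 5.52 ± 0.22 (log2 difference ± SE, 45.8-fold, limma adjusted p = 1.80e-05). That fit averages the 2 H19 probes read on all arrays. The difference was 4.37 with normexp background correction, and 4.24 or 18.9-fold on the WT arrays alone, over 4 probes of which the dimmest differed by 0.95. Mest was lower, at -5.38 ± 0.25 (41.8-fold, limma adjusted p = 2.82e-05). It was -4.51 with normexp, -5.89 on the WT arrays alone and -4.88 on the ASK1-deficient arrays alone. Differences of at least 5 log2 units that passed were found for 65 genes, 0.462% of those tested.

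The smaller tissue differences were 1.31 ± 0.15 for Cdkn1c (limma adjusted p = 0.000586), -1.27 ± 0.18 for Grb10 (0.0016) and 0.74 ± 0.15 for Ndn (0.0064), which turned to -0.11 without scaling between arrays. Without it Cdkn1c was at 0.47, Grb10 at -2.11, H19 at 4.67 and Mest at -6.23, while the median of all genes moved by -0.85. With normexp Grb10 was at -0.66. Meg3 at -0.42 ± 0.18 (limma adjusted p = 0.0986), Igf2r at 0.24 ± 0.14 (0.201) and Peg3 at 0.10 ± 0.16 (0.614) did not pass. Without scaling Meg3 was at -1.26, Igf2r at -0.60 and Peg3 at -0.75, and each then passed as lower in iBAT. Igf2 could not be fitted, since it was not well above background in WT iBAT. For Dlk1 the fit shares the ASK1KO iBAT array on which it was chosen, so its difference of 2.91 ± 0.37 is given with no test, and on the WT arrays alone it was 2.07. Skeletal muscle markers differed in the same direction as H19, 9 of 9 higher in iBAT with a median of 8.47, and several lists in that of Mest. Adipocyte progenitor markers were lower in iBAT in 10 of 12, with a median of -1.12, macrophage markers in 8 of 9, with a median of -2.66, and the 1 mesothelial marker fitted, Lrrn4, was at -3.64. Their part in the tissue differences was not tested.

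**Figure D4:**
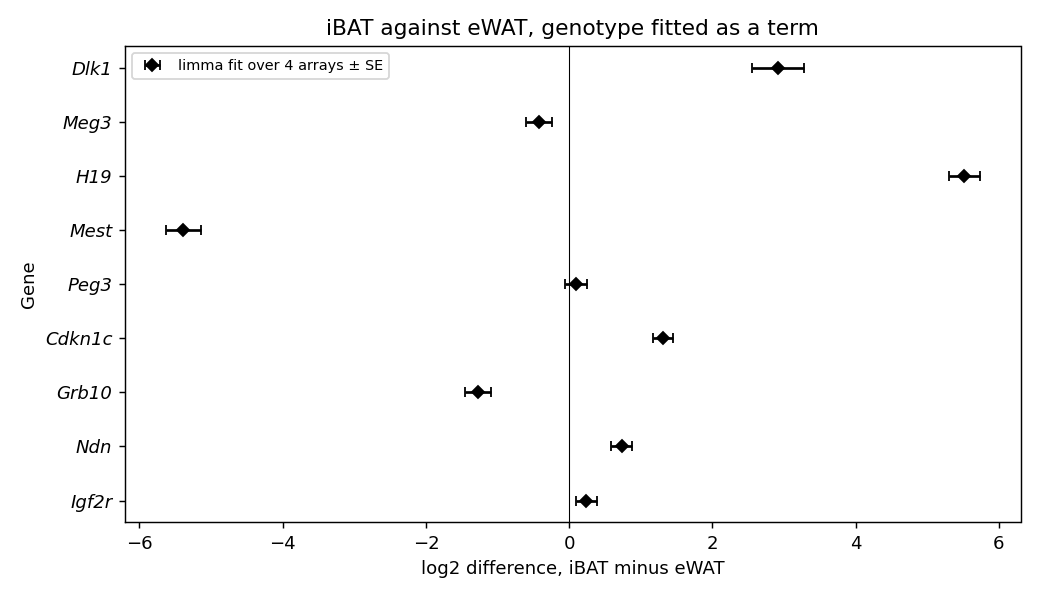
Log2 difference between iBAT and eWAT for the 9 members that could be fitted, as diamonds with bars for the SE of the limma fit over 4 arrays. H19 at 5.52 and Mest at -5.38 lie at opposite ends, and Meg3, Peg3 and Igf2r lie within 0.5 of 0.

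Other imprinted genes were described in the same way. Of 62 listed, 45 were measured in iBAT with a median log2 ratio of -0.0007, 21 of them above 0, and 50 in eWAT with a median of 0.07. Nap1l5, a nucleosome assembly protein-like gene, was the 1 gene at least 2-fold lower in iBAT, at -1.61, beside 1.02% of all genes. Its mean signal over all its probes, dim ones included, was 126 in WT iBAT, 41.5 in ASK1KO iBAT, 62.1 in WT eWAT and 34.8 in ASK1KO eWAT. The log2 ratio uses only the probes well above background on both arrays. In eWAT Slc38a4, an amino acid transporter, was the 1 such gene, at -1.33, beside 0.865% of all genes. Its signal was 60.7 in WT eWAT and 22.7 in ASK1KO eWAT, where probes counted as well above background from 20.7 upward. No other imprinted gene was 2-fold higher in either tissue, as 0.835% of all genes were in iBAT and 0.286% in eWAT. Gatm at 0.85 and Mirg at 0.79 lay above Mest at 0.69 in iBAT, and Begain at 0.67 and Nnat at 0.66 lay between Mest and Meg3 at 0.56, so the ranges of members and other imprinted genes overlapped, and no test compared them. By cluster, the genes furthest from 0 in iBAT and eWAT were Slc22a18 at 0.54 and Kcnq1ot1 at 0.45 near Igf2 and H19, Snrpn at -0.26 and Magel2 at 0.32 near Ndn, and Asb4 at -0.50 and 0.30 in the Peg10 cluster. Zim3 beside Peg3 had -0.03 and 0.33. In the Mest, Grb10 and Igf2r clusters they were Slc22a2 at -0.32 in iBAT and Klf14 at 0.76 in eWAT.

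Partners of these genes were listed by pathway. In the IGF axis, Irs2, a docking protein of the insulin and IGF1 receptors, was the 1 gene at least 2-fold lower in iBAT, at -1.03, beside 1.02% of all genes. Grb7 was the 1 such gene in eWAT, at -1.12, beside 0.865%. The medians of the list were -0.03 over 15 genes and 0.007 over 17. Among Notch ligands, receptors and targets and the proteins known to bind or follow Dlk1, 13 of 15 lay above 0 in iBAT with a median of 0.30, beside -0.07 over all genes. In eWAT 6 of 15 were above 0, with a median of -0.02 beside 0.02 over all genes, and none reached 2-fold in either tissue. Of the markers, 7 of 8 for endothelium, 9 of 9 for macrophages and 3 of 11 for mature adipocytes lay above 0 in iBAT. The part of these cell types in the list was not tested. Furthest from 0 in the list was Sox9, a transcription factor through which Dlk1 is known to restrain adipogenesis, at 0.83 in iBAT. Its signal there was dim, at 26.2 in WT and 48.6 in ASK1KO, with limits of 19.7 and 17.3 for well above background. In eWAT, where Sox9 was brighter at 353 and 240, it had -0.47, and Hes1 was furthest at 0.52. A link of these values to Dlk1 was not tested. CDK inhibitors other than Cdkn1c had medians of -0.14 and 0.03, with Cdkn2c furthest in iBAT at -0.48 and Cdkn2b in eWAT at -0.29.

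**Figure D5:**
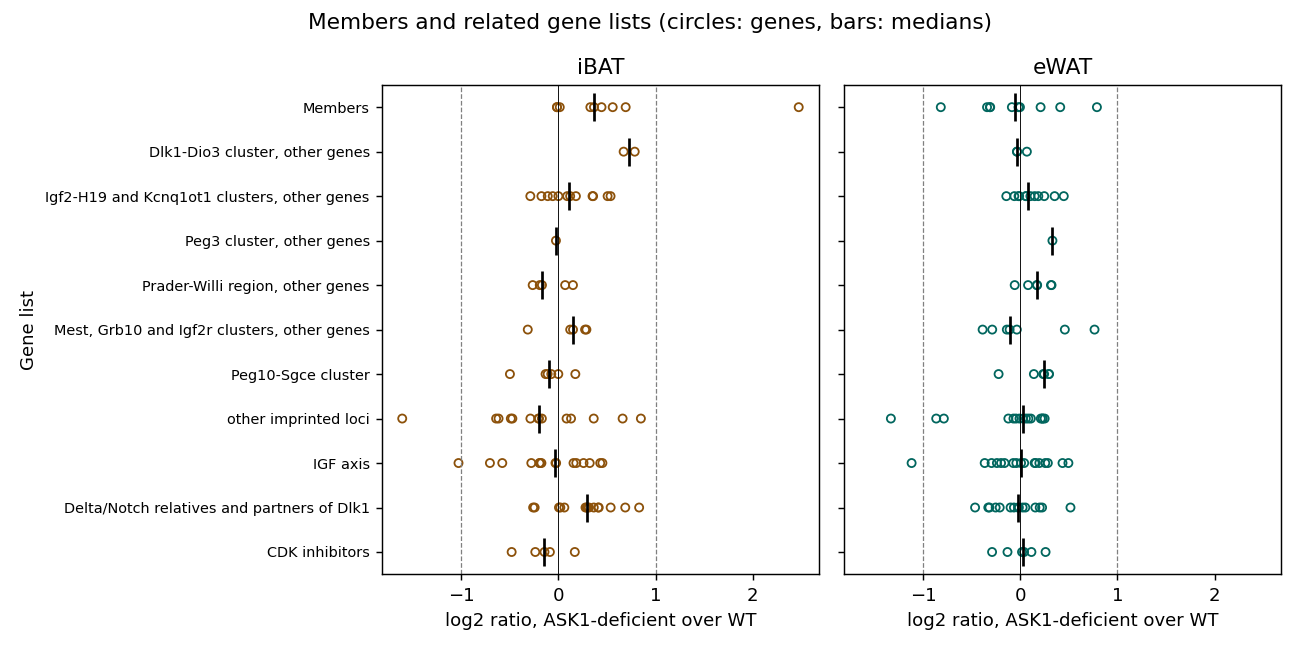
Log2 ratio of ASK1-deficient over WT for single genes (circles) and list medians (bars), for the members and 10 lists of other imprinted genes and related pathways, in iBAT on the left and eWAT on the right, with dashed lines at 2-fold. The members' median is 0.37 in iBAT and -0.05 in eWAT, and Dlk1 is the circle furthest to the right in iBAT.

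The genes whose 4 array values ran closest to those of Dlk1, by Euclidean distance after centring over 14055 other genes, were Cdhr5, Cntfr, Olfr681, Tusc3 and Spag5. Cdhr5, a cadherin-related protein, was nearest at a distance of 0.47, and its log2 ratios were 1.86 (iBAT) and 0.56 (eWAT). Cntfr, the receptor of ciliary neurotrophic factor, followed at 1.07, with 1.24 and -0.09. The likeness rests on 4 arrays and includes the array on which Dlk1 was chosen.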

How the data were processed

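Per spot, the authors deposited a processed intensity from the scanner software, linear, corrected for background and not scaled between arrays. They also deposited a series table of signal values, which equal that intensity divided by 1 constant per array. Agilent Feature Extraction 10.7.3.1 was named in the file headers, with positions on mm9.

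Control spots and outliers were dropped, repeated spots averaged, and log2 signals were scaled to each array's 75th percentile. A gene's log2 ratio averages the probes that both arrays read well above background. Where 1 array did not, a bound was given, in which the dim array counts at its own level or at its lowest level above background, whichever is higher. Of 34840 gene names, 22145 matched RefSeq symbols. No test was run within a tissue. Genotype and tissue were fitted over 14056 genes with limma 3.58.1 (R 4.3.3) and Benjamini-Hochberg adjustment, with 5.24 prior degrees of freedom. The spread behind the p-values is the difference between tissues in the genotype effect, moderated over genes. It is not a spread between replicate arrays or between mice. The number of arrays limits the precision. Sequences are printed for 7 of the 22 member probes, and the other 15 are not reported here.

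The members, the gene and marker lists and the fit were chosen with earlier results of these data known. The genes named are all members, Map3k5, in the lists of imprinted and related genes those at least 2-fold apart and the furthest from 0, and the 5 most like Dlk1. Rtl1, Begain, 6430411K18Rik, Gatm, Nnat, the single marker genes and the promoters printed were picked with their values or motif matches already known. Alternatives were normexp (offset 50), quantile normalization, no scaling, other percentiles, median centring, the series table, other filters and probe rules, all gene names and a 1.5-fold limit. The scripts were tested on simulated data, which cover array noise and not the mice. Python 3.11.15, numpy 2.4.6, pandas 2.3.3 and matplotlib 3.10.9 were used.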

Additional observations from a re-analysis of the deposited data

Results flagged for a closer look

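In 4 members the log2 ratio of ASK1-deficient over WT had opposite signs in the 2 tissues, counted by sign alone. Igf2 was not counted, since it had only a bound in iBAT, at least 1.63-fold higher, beside -0.34 in eWAT. Mest had 0.69 in iBAT and -0.31 in eWAT, the first of them 0.20 with normexp background correction. Grb10 had 0.44, or 0.24 with that correction, and -0.087. For H19, at 0.014 and -0.82, and for Meg3, at 0.56 and -0.0041, the value nearer to 0 was within the technical spread, and its sign turned with median centring and in the series table. With 1 array per group the difference between the tissues was not tested.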

How the results depend on the processing

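Each condition has 1 array, so no replicate numbers could serve as a block and no replicate could be left out. The limma fit averages the genotype difference of the 2 tissues, over 2 pairs of arrays. Dlk1 kept its sign in both tissues under all 11 alternatives. In iBAT its log2 ratio was 1.79 with normexp, 2.58 with the percentile over probes above background on all arrays, 2.17 at the brightest probe and 1.63 in the limma fit. In eWAT it was 0.50 with normexp, 0.70 without scaling, 0.92 at the brightest probe and again 1.63 in the fit, which takes 1 genotype effect for both tissues. That fit called 0 genes higher or lower by genotype and 0 members, with 770 of 14056 genes at an unadjusted p under 0.05. Genes at least 2-fold higher and lower in iBAT numbered 120 and 146, or 38 and 68 with normexp, 583 and 544 when dim probes were kept, and 650 and 612 at 1.5-fold, where 2 members were higher. The share that was higher, 45.1%, went to 54.0% without scaling, 61.8% with the other percentile, 32.6% with median centring and 31.7% in the series table. In eWAT 44 and 133 became 10 and 50 with normexp, 431 and 604 with no filter, and 212 and 409 at 1.5-fold, where 1 member was higher and 1 lower. The lower count was 82 over probes above background on all arrays, the higher count 81 over all gene names, and 1 member, H19, was lower at the brightest probe, at -1.01. Between tissues 4333 genes were higher in iBAT and 3461 lower, or 1284 and 9580 without scaling (11.8% higher in place of 55.6%), which moved the median of all genes by -0.85. Then 5 members were lower, and Peg3 turned to -0.75, Ndn to -0.11 and Igf2r to -0.60. The count higher was 7165 with no filter and 6679 over all gene names, and at 2-fold 1525 and 1456 in both genotypes, 2338 and 1904 in WT and 1790 and 1832 in ASK1-deficient arrays. The limma adjusted p of H19 was 1.80e-05 with 5.24 prior degrees of freedom, 0.000892 with 3.63 (no filter), 1.00e-09 with 9.86 (normexp), and 6.51e-112 in the series table and 3.57e-114 with median centring, where the prior was infinite. The cause was not tested for any of these.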
